A study of Mus musculus with 36 samples.

Results

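The AP-1 and immediate-early genes described here are Fos, Fosb, Jun, Junb, Jund, Atf3, Egr1, Dusp1, Ier2 and Klf6. They were taken as a named list of 10 genes out of 54203 in the annotation. No cut-off on a measured value was applied, but the list was chosen with earlier results of these data known. All 10 passed the filter on low counts in both cohorts, but Atf3 had no read in 18 of 36 libraries and Egr1 in 8, so both passed on the libraries in which they were seen. RNA was sequenced from plasma cells, the B lineage cells that secrete antibody, which had been sorted from C57/BL6 bone marrow by a reporter together with CD138 and TACI, with 2000 cells per library.

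The 36 libraries formed 2 cohorts of mice modelling plasma cell cancer (multiple myeloma). Cohort D held the genotypes labelled Control(D), Ccnd1, Ikk2ca(D) and Ccnd1-Ikk2ca. Cohort M held Control(M), MMSET, Ikk2ca(M) and MMSET-Ikk2ca. Each double genotype had 6 libraries and each other group 4. Ccnd1 encodes cyclin D1, MMSET is the histone methyltransferase NSD2, and Ikk2ca is the usual name of a constitutively active form of IKK2, the kinase that activates canonical NF-kB. The alleles of the controls, the Cre line or promoter behind the transgenes and the reporter, and the ages of the mice are not given in the sources used here. Nothing in the labels ties each library to a mouse of its own, and the p-values therefore measure only how far these samples spread, which may be technical. Because RNA of sorted pools was measured, fewer expressing cells and less RNA per cell cannot be told apart.

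AP-1 is a family of dimers built from basic leucine zipper proteins. Jun proteins pair with one another or with Fos proteins, whereas Fos proteins need a Jun partner, and ATF3 can pair with Jun proteins. Immediate-early genes are switched on within minutes of a stimulus by transcription factors already present in the cell, and their RNAs are short-lived. Several of them are known to respond to the handling of live cells as well as to signals in the tissue. In the B cell lineage, AP-1 proteins act downstream of antigen and cytokine receptors.

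The stretches upstream of the start sites of Jun, Junb, Fos and Dusp1 are printed because these genes changed in level in the tests reported here and because the stretches carry the stimulus-response letters that were searched for. They hold the 250 bases before the RefSeq start on GRCm38.p6, written 5′ to 3′ along the gene's strand, and capitals mark matches to TGACGTCA, TGACNTCA or TGACG. The Jun stretch is chr4:95052223-95052472, minus strand, the Junb stretch chr8:84978749-84978998, minus strand, the Fos stretch chr12:85473640-85473889, plus strand, and the Dusp1 stretch chr17:26508473-26508722, minus strand.
Jun: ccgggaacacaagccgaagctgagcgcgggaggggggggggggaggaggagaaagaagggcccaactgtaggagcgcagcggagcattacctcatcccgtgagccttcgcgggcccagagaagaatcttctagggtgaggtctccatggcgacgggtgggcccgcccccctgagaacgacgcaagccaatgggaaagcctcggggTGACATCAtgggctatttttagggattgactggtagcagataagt
Junb: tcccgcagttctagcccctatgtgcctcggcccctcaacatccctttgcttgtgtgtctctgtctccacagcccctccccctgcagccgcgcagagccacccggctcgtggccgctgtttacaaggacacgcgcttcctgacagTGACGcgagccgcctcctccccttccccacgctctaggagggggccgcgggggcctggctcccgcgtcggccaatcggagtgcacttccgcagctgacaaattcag
Fos: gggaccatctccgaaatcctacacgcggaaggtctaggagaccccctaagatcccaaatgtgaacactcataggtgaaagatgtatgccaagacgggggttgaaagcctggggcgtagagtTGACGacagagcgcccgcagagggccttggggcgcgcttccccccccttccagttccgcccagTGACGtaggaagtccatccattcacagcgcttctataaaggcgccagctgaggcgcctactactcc
Dusp1: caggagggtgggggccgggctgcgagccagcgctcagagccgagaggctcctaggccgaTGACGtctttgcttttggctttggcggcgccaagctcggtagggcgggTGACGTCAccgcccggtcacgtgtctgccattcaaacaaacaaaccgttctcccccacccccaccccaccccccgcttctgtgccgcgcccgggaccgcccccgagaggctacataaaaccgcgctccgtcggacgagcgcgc

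RefSeq sequence was used for 8 of the 10 genes, and that of Ier2 and Egr1 was not used here. The window of Jund ended at base 70697738 of chromosome 8, whereas the annotated gene began at 70698949. It therefore did not adjoin the start used for the read counts, and it is kept in each count of 8. Both strands were searched. The full cyclic AMP response element TGACGTCA, the letters bound by CREB and ATF proteins, stood only upstream of Dusp1, from 143 to 136 bases before the start. It was present in 1.55% of 32851 promoter windows of the same length. The Jun stretch held TGACATCA from 45 to 38 bases before the start, and Klf6 held the same letters from 119 to 112. With TGACGTCA of Dusp1 these were 3 of 8 genes with TGACNTCA, against 7.49% of all windows. The 5-base core TGACG, which TGACGTCA contains, stood upstream of 5 of 8 (Fos, Fosb, Junb, Atf3 and Dusp1), against 17.8% of all windows. Neither TGACNTCA nor TGACG was among the motifs chosen at first, and both were added after the sequences had been read. The AP-1 letters TGANTCA (6.75% of all windows) and the CArG box bound by serum response factor (1.47%) stood in 0 of 8 windows. The NF-kB pattern (GGG, then 5 bases of any kind, then CC) stood in 6 of 8, against 45.8% of all windows, and the EGR pattern GCGNGGGCG in 1 (Fosb), against 4.70%. These matches describe letters in a window, not binding.

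Libraries held 54.1 to 97.6 M estimated reads, of which immunoglobulin genes took 43.8% to 72.9%, leaving 16.2 to 34.9 M reads for other genes. The labelled transgenes were seen in their groups: Ccnd1 stood at 303 ± 53.8 CPM (reads scaled to the library total with TMM factors, mean ± SD, n = 4) in Ccnd1 and 0.845 ± 0.304 in Control(D), and Nsd2 at 627 ± 189 in MMSET and 3.33 ± 1.20 in Control(M). Ikbkb, the gene of IKK2, stood at 57.1 ± 18.1 in Ikk2ca(D) and 27.4 ± 8.32 in Control(D), and at 56.6 ± 10.2 in Ikk2ca(M) and 26.6 ± 7.51 in Control(M). In Ccnd1-Ikk2ca (n = 6) Ccnd1 stood at 701 ± 253 CPM, a log2 difference of 1.20 from Ccnd1 alone (SE 0.475). In MMSET-Ikk2ca (n = 6) Nsd2 stood at 339 ± 164 CPM, a log2 difference of -0.89 from MMSET (SE 0.348). The groups overlapped in both cases and edgeR called neither difference. The part of these transgene levels in the differences between double and single genotypes was not tested. Plasma cell markers, 8 of 8 detected in each group, summed to 4431 to 119766 CPM per library. In cohort D the sums ran from 54145 to 99913 in Control(D), and those of Ikk2ca(D) (17129 to 47487) and Ccnd1-Ikk2ca (7523 to 19494) lay wholly below. In cohort M they ran from 31071 to 41705 in Control(M), and those of MMSET (6923 to 24012), Ikk2ca(M) (6914 to 16407) and MMSET-Ikk2ca (4431 to 6388) lay wholly below. Jchain gave most of the control sums: its mean was 73742 CPM for Control(D), beside 31938 for Control(M). Against control, edgeR called 0 of the 8 genes in Ikk2ca(D), MMSET and Ikk2ca(M), with median log2 changes of -0.27, -0.30 and -0.37. Of the 8, respectively 2, 3 and 1 lay above 0. In Ccnd1-Ikk2ca and MMSET-Ikk2ca edgeR called 4 of 8 lower each, with medians of -0.51 and -0.70. The part of these marker shifts in the changes reported here was not tested. Ccnd1-Ikk2ca 5 was the highest of its group for 5 of the 10 (Jun, Junb, Jund, Dusp1 and Ier2), and MMSET-Ikk2ca 6, which had the lowest immunoglobulin share, 43.8%, was the highest for 4 (Fos, Junb, Dusp1 and Ier2). Such counts were not particular to these libraries: Control(D) 1 was the highest of its group for 6, Control(M) 1 for 5 and MMSET-Ikk2ca 3 for 4.

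The TPM values, abundances scaled by transcript length as well as library total, were used to set one gene beside another. Over 36 libraries Junb was the most abundant, with a median of 12.8 TPM, followed by Jund at 6.89, Jun at 3.49, Ier2 at 3.22, Fos at 2.29, Klf6 at 2.27 and Dusp1 at 1.81. Fosb had 0.169, Egr1 0.0894 and Atf3 0.00168. The ranges over libraries of neighbouring genes in this order overlapped at each step, for example those of Junb (4.22 to 70.4 TPM) and Jund (1.35 to 30.4). The order also turned between groups: the mean of Jund was above that of Junb in Control(D) (6.28 and 5.12 TPM), and the mean of Jun above that of Jund in MMSET (6.95 and 5.25). In Fosb, 78.3% of the TPM was assigned to a transcript with a retained intron, and in Klf6 64.5%, so their levels rest on models that do not all encode the protein. The same holds in part for Dusp1, with 11.7% and 17.5% on transcripts with a retained intron and 16.55% on another noncoding one. In Fos, 26.8% was assigned to a noncoding transcript. The CPM levels and the tests use reads, which were split differently. In Klf6, 21240 reads lay on the coding transcript and 5590 on that with a retained intron. In Fosb, 3558 lay on the transcript with a retained intron and 645 on the leading coding one. In Dusp1, 13140 lay on the leading coding transcript, and 4305 and 1838 on those with a retained intron.

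**Figure D1:**
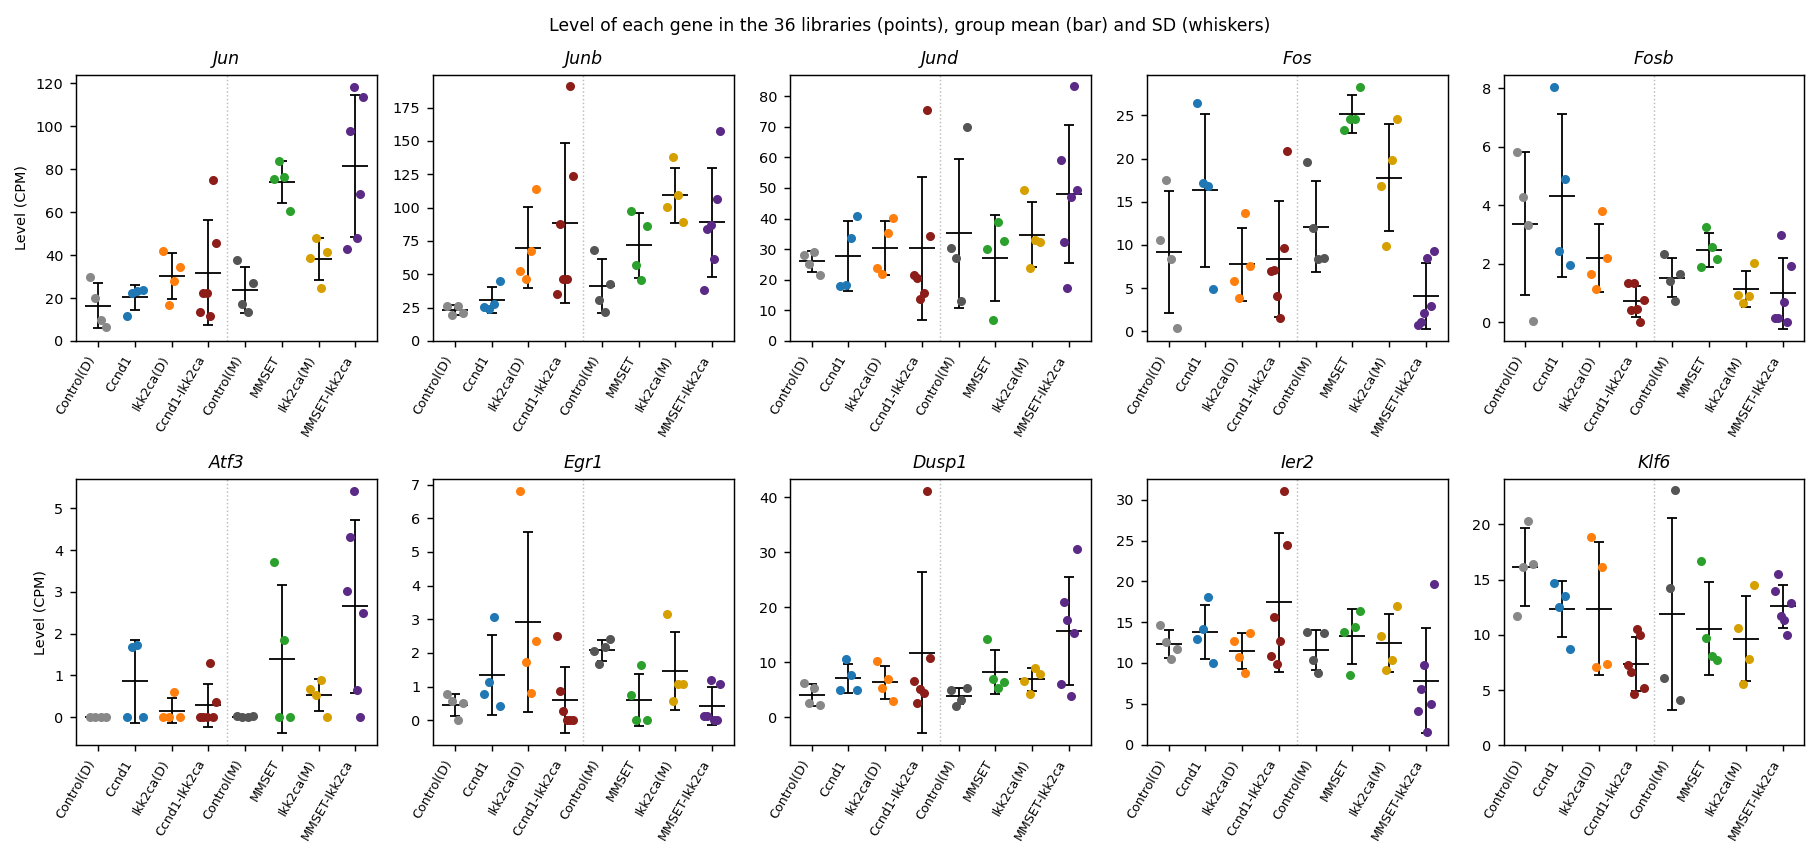
Level of each gene (CPM, linear axis from 0 or just below it) in the 36 libraries, with points for libraries, a bar for the group mean and whiskers for the SD. All MMSET and MMSET-Ikk2ca libraries lie above the Control(M) libraries for Jun, and all Ccnd1-Ikk2ca libraries lie above the Control(D) libraries for Junb.

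Changes in 6 of the 10 genes passed the threshold (edgeR quasi-likelihood test, Benjamini-Hochberg adjusted p under 0.05 over all genes tested) in at least 1 of 15 comparisons, which gave 8 calls. The share of all genes called in at least 1 of the 15 is not given here, so the 6 have no background. Single comparisons called between 0% and 11.1% of all genes. Junb rose and Klf6 fell in Ccnd1-Ikk2ca, Jun rose in MMSET, and Jun, Dusp1 and Atf3 rose in MMSET-Ikk2ca, each against the control of its cohort. Fos fell in MMSET-Ikk2ca against MMSET, and Junb rose in Ccnd1-Ikk2ca against Ccnd1. Against the controls, 0 of the 10 were called by edgeR in either single Ikk2ca group or in Ccnd1 alone. The median log2 change over the 10 lay between 0.26 and 0.75 in the 6 comparisons with a control, beside medians between -0.01 and 0.02 over all genes tested. Without Atf3, whose controls held at most 1 read per library, the median was 0.22 for Ikk2ca(D), 0.09 for Ikk2ca(M) and 0.08 for MMSET-Ikk2ca, in place of 0.43, 0.32 and 0.26, and between 0.37 and 0.69 in the other 3 comparisons.

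Jun encodes c-Jun, a strongly activating AP-1 subunit (chromosome 4, 95049034 to 95052222, GRCm38, minus strand, a single transcript). In Control(M) it stood at 37.5, 17.2, 13.3 and 27.1 CPM in libraries 1 to 4. In MMSET it stood at 75.4, 83.7, 76.6 and 60.6 CPM. In MMSET-Ikk2ca the lowest library had 42.9 CPM, the median was 83.2 and the highest had 119. Every library of both MMSET genotypes lay above every control library, and the 4 MMSET libraries were close together while the 6 of the double genotype spread widely. Of all genes tested, 6.08% had no overlap between MMSET and Control(M), and 9.27% had none between MMSET-Ikk2ca and Control(M). Against Control(M), Jun rose by 1.63 on the log2 scale in MMSET (SE 0.340, edgeR adjusted p = 0.0286), a 3.10-fold difference, and by 1.77 in MMSET-Ikk2ca (SE 0.323, edgeR adjusted p = 0.00226), a 3.41-fold difference. The call in MMSET was 1 of 10 genes described here, beside 0.649% of 15416 genes called in that comparison (0.474% higher). DESeq2 called 2 there, Jun and Atf3, beside 4.63% of all genes. It was lost when any of Control(M) 2, 3 or 4 or MMSET 2 or 3 was left out, with adjusted p up to 0.132 over the alternatives, while the call in MMSET-Ikk2ca held in 17 of 17 alternatives.

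Ikk2ca(M) had 38.7, 47.8, 24.5 and 41.3 CPM of Jun, which overlapped its control. Its log2 difference of 0.67 (SE 0.333, edgeR adjusted p = 0.425) did not pass, nor did the 0.14 between MMSET-Ikk2ca and MMSET (SE 0.304, edgeR adjusted p = 0.944). In cohort D the Jun levels were 29.7, 20.3, 9.64 and 6.30 CPM in Control(D), 11.6, 22.4, 23.5 and 23.9 in Ccnd1, and 41.9, 16.7, 27.8 and 34.3 in Ikk2ca(D). Ccnd1-Ikk2ca ran from 11.7 through a median of 22.3 to 75.0 CPM, and all 4 groups overlapped. The MMSET change exceeded the Ccnd1 change by 1.33 (SE 0.684, edgeR adjusted p = 0.586), which did not pass. In that contrast edgeR and DESeq2 each called 0 of the 10 beside 0.0409% of all genes for edgeR, and 0 had an unadjusted p under 0.05. The 2 double genotypes differed by 1.36 in Jun, higher with MMSET (SE 0.400, edgeR adjusted p = 0.066), which did not pass with all libraries and passed without Ccnd1-Ikk2ca 5 (1.82).

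Junb encodes JunB, a Jun protein that activates less strongly than c-Jun at many sites (chromosome 8, 84974484 to 84978718, minus strand). In Control(D) it stood at 26.4, 19.4, 26.1 and 20.8 CPM. In Ikk2ca(D) it stood at 52.8, 46.2, 67.3 and 114 CPM. In Ccnd1-Ikk2ca it ran from 35.6 through a median of 67.4 to 191 CPM. Neither group with Ikk2ca overlapped the control, whereas Ccnd1, with 25.2, 24.0, 28.1 and 44.95 CPM, did. Of all genes tested, 12.8% had no overlap between Ccnd1-Ikk2ca and Control(D). Junb rose by 1.94 on the log2 scale in Ccnd1-Ikk2ca against Control(D) (SE 0.435, edgeR adjusted p = 0.00941), a 3.83-fold difference that held in 17 of 17 alternatives, with values between 1.19 and 2.10. Junb was 1 of 2 genes of the 10 called there, beside 11.1% of 15323 genes (5.83% higher and 5.32% lower), and DESeq2 called the same 2 beside 16.9%. Against Ccnd1 alone the rise was 1.53 (SE 0.427, edgeR adjusted p = 0.0423), 1 of 10 beside 6.2% of all genes (2.81% higher), and this call held in 8 of 17 alternatives. The losses included those without any of Ccnd1 1, 2 or 3 or Ccnd1-Ikk2ca 2, 5 or 6, and the difference was 0.84 with only libraries 1 to 4 of the double genotype.

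With Ikk2ca alone the Junb difference was 1.60 in cohort D (SE 0.454, edgeR adjusted p = 0.133), and 0 of the 10 genes were called there by edgeR, beside 0.437% of all genes, with 1 of the 10 at an unadjusted p under 0.05. In cohort M, Control(M) had 68.4, 31.0, 21.5 and 43.0 CPM and Ikk2ca(M) had 100.2, 138, 109 and 89.4, again without overlap. The difference of 1.41 (SE 0.381, edgeR adjusted p = 0.116) did not pass, and edgeR called 0 of the 10 beside 0.649% of all genes, with 2 at an unadjusted p under 0.05. DESeq2 called Junb, and no other gene of the 10, in both of these comparisons, where its share over all genes was 4.26% (cohort D) and 4% (cohort M). Levels in 2 groups that do not overlap were found for 7.64% of genes in Ikk2ca(D) and 7.95% in Ikk2ca(M) against their controls. MMSET-Ikk2ca ran from 38.1 through 85.2 to 157 CPM and overlapped the control (1.11, SE 0.354, edgeR adjusted p = 0.067), a difference that passed without Control(M) 1 (1.49) or MMSET-Ikk2ca 1 (1.27). The Ikk2ca change in Junb differed between the cohorts by -0.18 (M minus D, SE 0.607, edgeR adjusted p above 0.99), and in this contrast edgeR and DESeq2 called 0 of the 10 and edgeR 0% of all genes, with 0 of the 10 at an unadjusted p under 0.05.

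Jund encodes JunD, the Jun protein that is usually made without a stimulus (chromosome 8, 70698949 to 70700616, plus strand). Its group means lay between 26.0 and 48.1 CPM, every pair of groups compared overlapped, and no comparison passed. Single libraries reached 75.5 CPM (Ccnd1-Ikk2ca 5) and 83.2 (MMSET-Ikk2ca 5), and MMSET 2 had the lowest level, 6.94. The make-up of the Jun family by TPM did differ between groups. Junb gave 38.7% ± 4.50 (SD, n = 4) of the Jun, Junb and Jund total in Control(D), 57.8% ± 5.27 in Ikk2ca(D) and 63.8% ± 6.17 in Ccnd1-Ikk2ca. The share in Ccnd1-Ikk2ca was higher by 25.1 points (exact permutation test on both sides, p = 0.00476, the smallest that 6 against 4 libraries can give, adjusted p = 0.0429 over 18 tests), and that of Jund was lower by 23.2 points with the same p-values. The shares are parts of 1 total, so the lower Jund share is not separate from the higher Junb share, and the level of Jund itself was 9.67 ± 10.2 TPM in Ccnd1-Ikk2ca and 6.28 ± 0.651 in Control(D). In Ikk2ca(D) the exact p of 0.0286 is the smallest that 4 against 4 can give (adjusted p = 0.0857).

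In cohort M the Junb share was 45.8% ± 10.3 in Control(M), 65.0% ± 7.15 in Ikk2ca(M) and 46.4% ± 9.27 in MMSET-Ikk2ca. The share of Jun itself was 29.0% ± 8.96 in MMSET, beside 14.1% ± 2.73 in Control(M). It was 23.6% ± 8.42 in MMSET-Ikk2ca and 12.1% ± 2.88 in Ikk2ca(M). MMSET and Control(M) did not overlap in the Jun share, nor Ikk2ca(M) and Control(M) in the Junb share (exact permutation p = 0.0286 and adjusted p = 0.0857 for each). In Ccnd1-Ikk2ca the Jun share was 11.9% ± 2.66, beside 13.8% ± 7.34 in Control(D), and these overlapped.

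**Figure D2:**
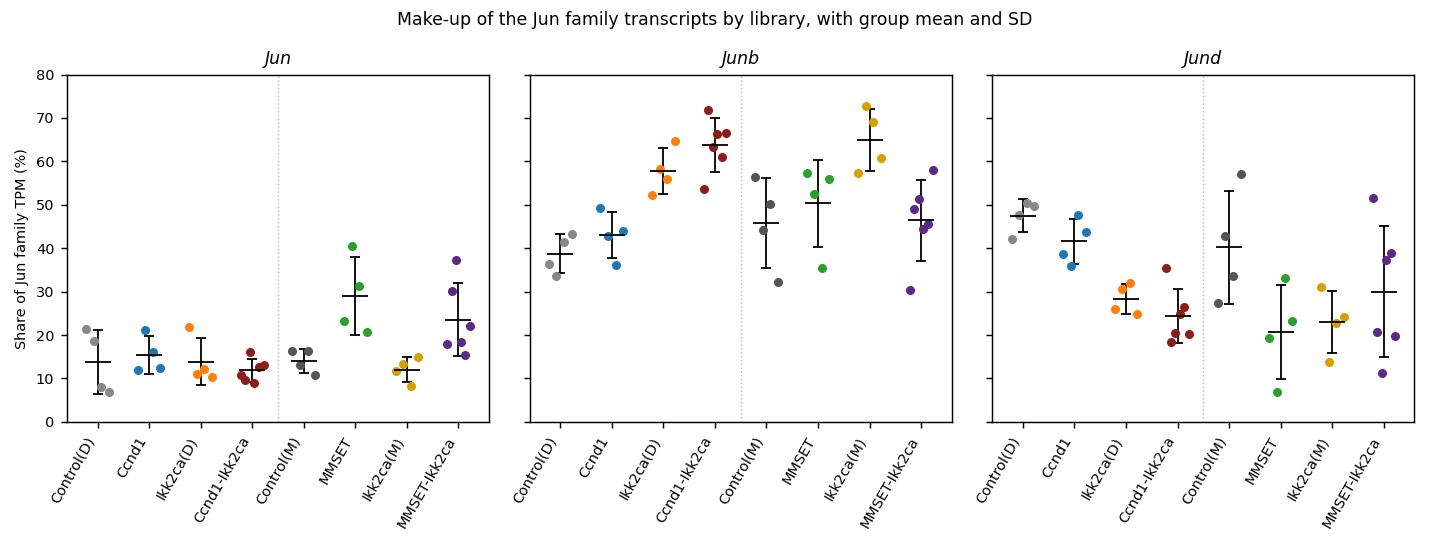
Share of the summed Jun, Junb and Jund TPM (percent, linear axis from 0) that each gene gave in each library, with group means and SDs. The Junb share rises from 38.7% in Control(D) to 63.8% in Ccnd1-Ikk2ca while the Jund share falls from 47.5% to 24.3%, and Jun is highest in MMSET, at 29.0%.

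Fos encodes c-Fos, which dimerises with Jun proteins (chromosome 12, 85473890 to 85477273, plus strand). In Control(M) it stood at 19.5, 11.99, 8.37 and 8.47 CPM. In MMSET it stood at 23.3, 24.5, 24.5 and 28.3 CPM, and in Ikk2ca(M) at 16.8, 9.86, 19.8 and 24.6. In MMSET-Ikk2ca it ran from 0.677 through a median of 2.49 to 9.31 CPM. The MMSET libraries lay close together and above the control. Neither edgeR nor DESeq2 called Fos in MMSET against Control(M), where 6.08% of genes had no overlap. The double genotype lay below every library of both single genotypes, overlapping the control. Fos fell by 2.62 on the log2 scale in MMSET-Ikk2ca against MMSET (SE 0.557, edgeR adjusted p = 0.0235), to 0.163 times the MMSET level, and was the 1 gene of the 10 called there, beside 1.58% of all genes (0.941% lower). DESeq2 also called Fos and no other of the 10, beside 5.79% of all genes. Groups without overlap were found for 3.83% of genes there and for 4.5% between MMSET-Ikk2ca and Ikk2ca(M). The call held in 14 of 17 alternatives and was lost without the filter on low counts and without MMSET 4 or MMSET-Ikk2ca 3 (adjusted p up to 0.0562).

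Against Ikk2ca(M) the Fos difference was -2.11 (SE 0.551, edgeR adjusted p = 0.075), with 0 of the 10 called by edgeR beside 0.96% of all genes, 3 at an unadjusted p under 0.05 and 2 (Fos and Jun) called by DESeq2 beside its 5.07% of all genes. It passed in edgeR without MMSET-Ikk2ca 4 (-2.46) or 6 (-2.53). Against Control(M) it was -1.56 (SE 0.548, edgeR adjusted p = 0.0959), and this passed without MMSET-Ikk2ca 4 (-1.91) or 6 (-1.99). The double genotype differed from the sum of the 2 single changes by -3.16 on the log2 scale in Fos (interaction, SE 0.830, edgeR adjusted p = 0.162), which did not pass in edgeR and passed in DESeq2 (1 of the 10, beside 2.72% of all genes). For all 10 genes this interaction gave 0 edgeR calls beside 0.0973% of all genes, and 2 had an unadjusted p under 0.05. Neutrophil markers were also lower in MMSET-Ikk2ca: the 8 genes summed to 0.744 to 12.5 CPM there, with all 8 detected there and in MMSET. The sums in MMSET 1 to 4 were 2536, 153, 70.4 and 42.3 CPM, so the high end was 1 library. Those in Control(M) ran from 39.4 to 183. The part of these markers in the Fos difference was not tested.

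In cohort D, Fos stood at 10.6, 17.5, 8.40 and 0.341 CPM in Control(D), 26.4, 17.2, 16.8 and 4.87 in Ccnd1, and 5.86, 3.86, 13.7 and 7.55 in Ikk2ca(D). Ccnd1-Ikk2ca ran from 1.57 through 7.03 to 20.8 CPM, and all groups overlapped. The Ccnd1 comparison had 0 of the 10 called by edgeR beside 0.00653% of all genes, and 1 at an unadjusted p under 0.05, and DESeq2 also called 0. The change of MMSET-Ikk2ca against its control differed from that of Ccnd1-Ikk2ca by -1.42 in Fos (SE 0.986, edgeR adjusted p = 0.666), which did not pass. That contrast had 0 of the 10 called by edgeR or DESeq2 beside 0.175% of all genes by edgeR, and 1 (Klf6) at an unadjusted p under 0.05. The Ccnd1 by Ikk2ca interaction had 0 called by either tool beside 0.0261% of all genes by edgeR, and 1 (Atf3) at an unadjusted p under 0.05.

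Fosb encodes FosB, the second Fos protein here (chromosome 7, 19302696 to 19310051, minus strand). It stood at 8.05, 2.43, 4.88 and 1.95 CPM in Ccnd1 and at 5.82, 4.28, 3.31 and 0.0325 in Control(D). In Ccnd1-Ikk2ca it ran from 0.0121 through a median of 0.605 to 1.35 CPM, below every Ccnd1 library. The difference from Ccnd1 was -2.60 (SE 0.922, edgeR adjusted p = 0.0987) and that from Control(D) -2.23 (SE 0.915, edgeR adjusted p = 0.127). Neither passed in edgeR, and 9.06% of genes had no overlap between Ccnd1-Ikk2ca and Ccnd1. DESeq2 called the first (Fosb and Junb, 2 of the 10, beside 12.5% of all genes), and edgeR the second without Control(D) 4, whose Fosb and Fos levels were the lowest of its group. In cohort M the group means ran from 0.984 CPM in MMSET-Ikk2ca through 1.13 in Ikk2ca(M) and 1.52 in Control(M) to 2.47 in MMSET, and all groups compared overlapped.

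**Figure D3:**
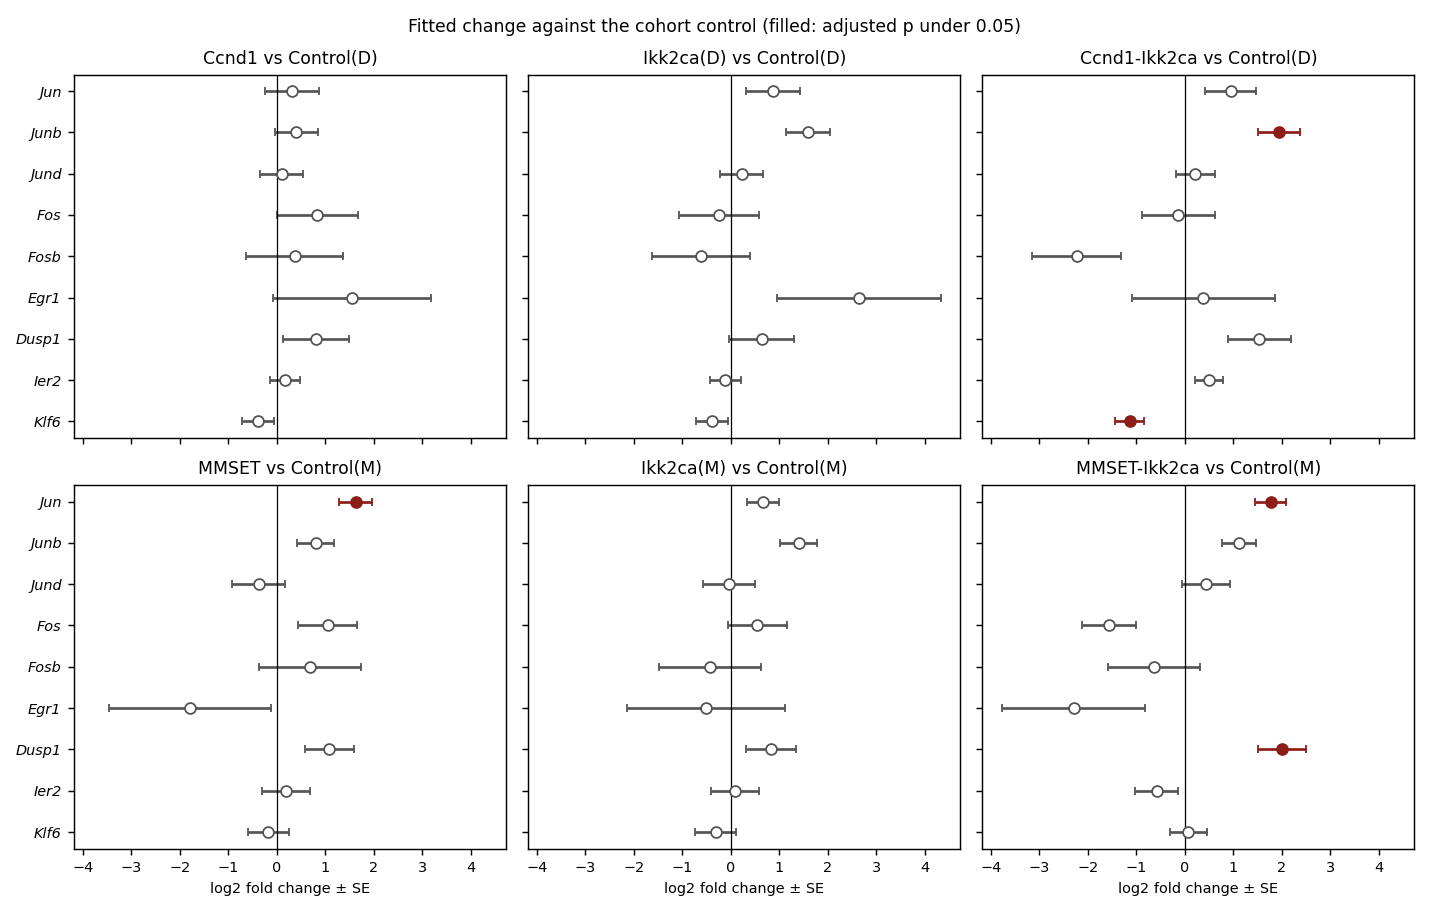
Fitted log2 fold change (edgeR) against the cohort control, with whiskers for the SE, for 9 of the 10 genes. Filled points passed an adjusted p under 0.05 (Junb 1.94 and Klf6 -1.13 in Ccnd1-Ikk2ca, Jun 1.63 in MMSET, Jun 1.77 and Dusp1 2.01 in MMSET-Ikk2ca), and Atf3 is left out because its controls held 0 or 1 read per library.

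Atf3 encodes a stress-induced member of the ATF family that binds with Jun proteins (chromosome 1, 191170296 to 191218039, minus strand). Control(D) held 0 reads in all 4 libraries, Ccnd1 held 0, 93, 99 and 0, and Ikk2ca(D) held 0, 1, 34 and 0. In Ccnd1-Ikk2ca 2 of 6 libraries had reads (92 and 29). Control(M) held 1, 0, 0 and 1 read, MMSET 225, 0, 114 and 0, and Ikk2ca(M) 44, 36, 57 and 0. In MMSET-Ikk2ca 5 of 6 libraries had reads, with 45 in the lowest of these and 367 in the highest, and library 5 had 0. The pattern was of libraries with many reads or none within a group, and no group lay wholly above its control. Against Control(M), Atf3 rose in MMSET-Ikk2ca (edgeR adjusted p = 0.0424), with 1166 reads in all against 2, a ratio of CPM of 323 (95% exact counting interval 89.3 to 2674). That call held in 7 of 17 alternatives, and leaving out any 1 of the 4 Control(M) libraries or of MMSET-Ikk2ca 1, 2, 3 or 6 ended it. In the other groups Atf3 was not called by edgeR. With the Control(D) group at 0 and a floor of 3 reads over the group, the summed level was at least 70.7-fold higher in Ccnd1 and at least 23.3-fold higher in Ccnd1-Ikk2ca. These bounds and intervals cover counting error only, and reads copied by PCR are not independent molecules.

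Egr1 encodes a zinc finger factor induced through serum response factor (chromosome 18, 34859823 to 34864984, plus strand). It was low throughout, between 0 and 6.81 CPM, with no reads in 8 libraries. Control(M) stood at 2.06, 1.67, 2.17 and 2.41 CPM, and all 4 were above all libraries of MMSET (0.76, 0, 1.64 and 0) and of MMSET-Ikk2ca (0 to 1.20, median 0.133). The differences of -1.78 (SE 1.67, edgeR adjusted p = 0.76) and -2.30 (SE 1.48, edgeR adjusted p = 0.417) did not pass. In cohort D, Ikk2ca(D), with 6.81, 1.72, 0.805 and 2.35 CPM, lay above Control(D), with 0.772, 0.577, 0 and 0.503, and the difference of 2.64 (SE 1.69, edgeR adjusted p = 0.576) did not pass. Groups without overlap were found for 6.08% of genes between MMSET and Control(M) and for 9.27% between MMSET-Ikk2ca and Control(M). Egr1 in Control(M) also lay wholly above Control(D) (2.16, SE 1.73, edgeR adjusted p = 0.783), where 4.51% of genes had no overlap.

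Dusp1 encodes a dual-specificity phosphatase that inactivates the MAP kinases p38, JNK and ERK, and so is a feedback gene of the same signals (chromosome 17, 26505590 to 26562128, minus strand). It stood at 4.92, 2.09, 3.16 and 5.34 CPM in Control(M) and at 14.2, 6.98, 5.34 and 6.49 in MMSET (1.08, SE 0.509, edgeR adjusted p = 0.369). In MMSET-Ikk2ca it ran from 3.88 through a median of 16.5 to 30.5 CPM, with 1 library inside the control range. Dusp1 rose by 2.01 on the log2 scale in MMSET-Ikk2ca against Control(M) (SE 0.495, edgeR adjusted p = 0.0189), 4.03-fold, and was 1 of 3 genes of the 10 called higher there beside 6.91% of all genes called (3.5% higher). DESeq2 called 5 of the 10 there (those 3, Junb and Fos), beside 13.8% of all genes. The call held in 13 of 17 alternatives and the losses included those without Control(M) 2 or 3 and with only libraries 1 to 4 of the double genotype (1.64). In Ccnd1-Ikk2ca the levels ran from 2.65 through 5.88 to 41.2 CPM, the highest in library 5, and the difference of 1.54 from Control(D) (SE 0.646, edgeR adjusted p = 0.14) did not pass. Dusp1 lies across the oppositely oriented Ergic1, and Junb across Prdx2. The counting used no strand, so part of the reads of each pair could belong to the partner.

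Ier2 encodes a nuclear protein of the immediate-early class (chromosome 8, 84661331 to 84662852, minus strand). Its level was even, between 8.51 and 18.04 CPM in all 24 libraries of the controls and single genotypes. In Ccnd1-Ikk2ca it ran from 9.93 through a median of 14.2 to 31.1 CPM and in MMSET-Ikk2ca from 1.58 through 5.88 to 19.7. MMSET-Ikk2ca was lower than Ccnd1-Ikk2ca by 1.16 on the log2 scale (SE 0.351, edgeR adjusted p = 0.0725), which did not pass with all libraries and passed without MMSET-Ikk2ca 6. In that comparison of the 2 double genotypes edgeR called 0 of the 10 genes beside 2.49% of all genes, 3 had an unadjusted p under 0.05, and DESeq2 called 2, Jun and Ier2, beside 5.53% of all genes.

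Klf6 encodes a Krüppel-like zinc finger factor that many stimuli induce (chromosome 13, 5861482 to 5870394, plus strand). It stood at 11.7, 16.2, 20.3 and 16.4 CPM in Control(D), 14.7, 12.5, 13.5 and 8.74 in Ccnd1, and 18.9, 7.12, 16.1 and 7.35 in Ikk2ca(D). In Ccnd1-Ikk2ca it ran from 4.63 through a median of 6.91 to 10.5 CPM, wholly below Control(D). Klf6 fell by 1.13 (SE 0.297, edgeR adjusted p = 0.0192), to 0.456 times the control level, and the call held in 15 of 17 alternatives and the losses included that without Control(D) 3 (-1.004). Groups without overlap were found for 12.8% of genes in this comparison. In cohort M, MMSET-Ikk2ca ran from 10.02 through 12.3 to 15.5 CPM inside the wide Control(M) range of 4.09 to 23.1, a difference of 0.08 (SE 0.385, edgeR adjusted p = 0.953). The changes of the 2 double genotypes against their controls differed by 1.21 in Klf6 (SE 0.504, edgeR adjusted p = 0.352), which did not pass. Between Ccnd1-Ikk2ca and Ikk2ca(D) the Klf6 difference was -0.74 (SE 0.298, edgeR adjusted p = 0.331), and 0 of the 10 were called there by edgeR or DESeq2, beside 0.424% of all genes by edgeR, with 2 (Klf6 and Ier2) at an unadjusted p under 0.05.

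Within groups, some of the genes moved together from library to library. After subtraction of the group means from log2 CPM, 31 of 45 pairs had a positive Pearson r over the 36 libraries, with a median of 0.164. Jun and Junb had r = 0.677 (Spearman rho = 0.612, adjusted permutation p = 0.00495 and 0.0139), and r = 0.631 without the 2 libraries farthest from the median. Dusp1 and Ier2 had r = 0.659 (rho = 0.553, adjusted permutation p = 0.00495 and 0.0341), and 0.523 without 2 libraries. Jun also correlated with Dusp1 (r = 0.621, rho = 0.585, adjusted permutation p = 0.0155 and 0.0341, r = 0.501 without 2 libraries) and Ier2 (r = 0.588, rho = 0.642, adjusted permutation p = 0.00495 and 0.0135, r = 0.564 without 2 libraries). Junb correlated with Ier2 (r = 0.567, rho = 0.533, adjusted permutation p = 0.0362 and 0.0495, r = 0.498 without 2 libraries). These 5 pairs passed by r, and permutation was within groups with p-values adjusted over the 45 pairs.

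Fos and Fosb had r = 0.576 (rho = 0.574, adjusted permutation p = 0.172 and 0.0479), and r = 0.430 without Control(D) 4 and Ccnd1-Ikk2ca 4. Fos and Jun had r = 0.448 (rho = 0.330, adjusted permutation p = 0.209 and 0.389). Klf6 had negative values with the Jun genes, with r between -0.26 and -0.19 and no adjusted p under 0.05. Without Ccnd1-Ikk2ca 5 and MMSET-Ikk2ca 6 the Jun and Junb r was 0.588 and that of Dusp1 and Ier2 0.559.

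**Figure D4:**
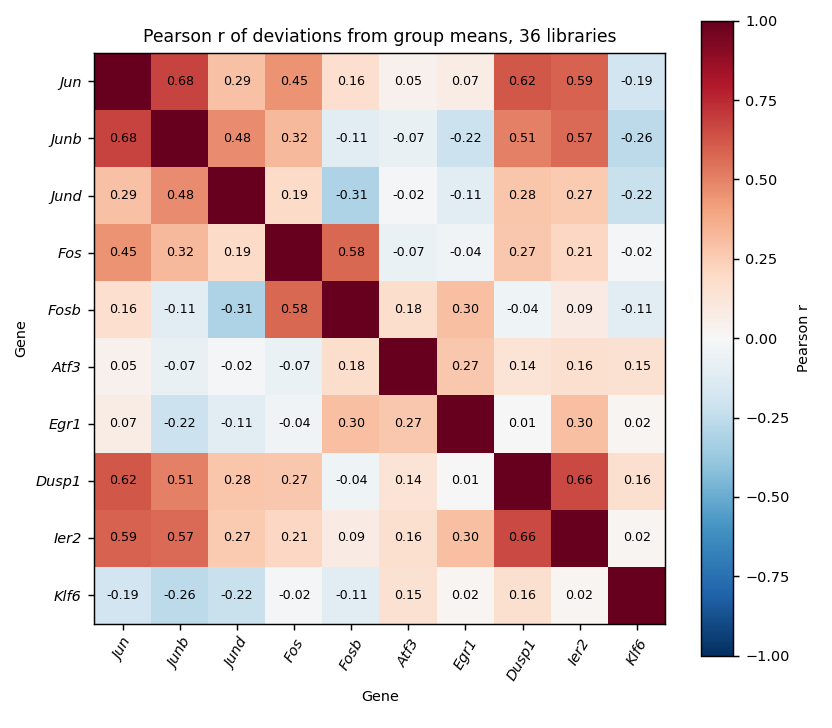
Pearson r between the deviations of each pair of genes from their group means (log2 CPM, 36 libraries), printed in each square on a colour scale from -1 to 1. Jun, Junb, Dusp1 and Ier2 form a block of r between 0.51 and 0.68, in which the pair of Junb and Dusp1 did not pass. Fos and Fosb form a pair at 0.58, and Klf6 is near 0 or below with the Jun genes.

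**Figure D5:**
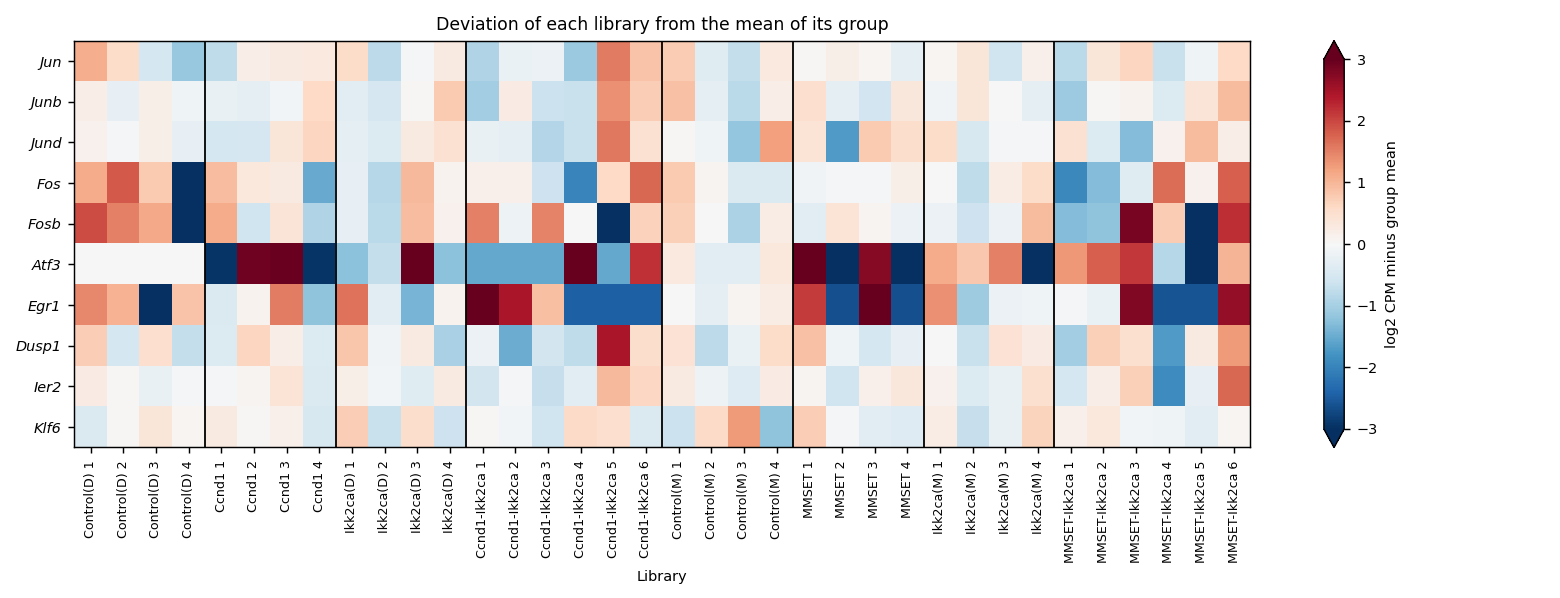
Deviation of each library from the mean of its group (log2 CPM, colours limited to 3 in either direction) for each gene, with black lines between the 8 groups. Ccnd1-Ikk2ca 5 and MMSET-Ikk2ca 6 are high for several genes at once, Control(D) 4 is low for Fos and Fosb, and Atf3 and Egr1 alternate between libraries with reads and libraries without.

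Among 17106 other genes, those whose deviations over the 36 libraries were most like each member's, by the 3 highest Pearson r for each, were listed. Those of 4 members are given, chosen by no set rule, with the first match of each other member. For Junb they were Ppp1r15a, a regulatory subunit that reverses eIF2 alpha phosphorylation (r = 0.740), Afp (0.686) and Csrnp1, a cysteine and serine rich nuclear factor (0.678). For Jun they were Mpzl2 (0.711), Ttc25 (0.646) and Zfp36l1, an RNA-decay factor (0.635), and for Klf6 they were Sat1 (0.704), Prdm1, the plasma cell regulator Blimp-1 (0.671), and Grina (0.666). Jund had the closest matches, led by Nsmce4a at 0.908 and Hnrnpl at 0.864. The first matches of the other members were Pdp1 for Fos (0.651), Zfp729a for Fosb (0.684) and Elovl7 for Atf3 (0.733). They were Terf1 for Egr1 (0.741), Fyb2 for Dusp1 (0.681) and Shroom2 for Ier2 (0.663). None of these stands among the genes named from the lists here. These r values were the highest of many and carry no test, and the libraries share sorting and preparation.

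Other genes of the same pathways were taken from 5 lists. Of 12 other AP-1 partners (Fosl, Batf, Maf, Atf and Jdp2 genes), 8 were tested within the cohorts and edgeR called 0 in each of the 12 comparisons there. Between 0 and 2 of them had an unadjusted p under 0.05 in a comparison, and DESeq2 called 1, Batf, in Ccnd1-Ikk2ca against Control(D). Of 16 other immediate-early transcription factors 14 were tested. In both double genotypes 1 fell and 1 rose against the control, beside 11.1% of all genes called in Ccnd1-Ikk2ca and 6.91% in MMSET-Ikk2ca. Klf2, a factor of lymphocyte quiescence and homing, fell from 9.52 ± 1.72 to 0.120 ± 0.133 CPM in Ccnd1-Ikk2ca (edgeR adjusted p = 0.000932) and from 12.1 ± 7.84 to 0.138 ± 0.145 in MMSET-Ikk2ca (edgeR adjusted p = 0.00489). Ets2, an ETS factor downstream of Ras signalling, rose by 2.46 (edgeR adjusted p = 0.0183) and 1.84 (edgeR adjusted p = 0.0315) on the log2 scale.

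Of 28 other immediate-early and feedback genes, 26 were tested in cohort D and 27 in cohort M. In Ccnd1-Ikk2ca 4 rose and 1 fell, in Ikk2ca(M) 4 rose and 0 fell, and in MMSET-Ikk2ca 5 rose and 1 fell, each against its control. Over all genes tested 11.1%, 0.649% and 6.91% were called in these comparisons. In Ccnd1 edgeR and DESeq2 called 0 of them, with 0 at an unadjusted p under 0.05. In Ikk2ca(D) edgeR called 0, with 6 at an unadjusted p under 0.05, and DESeq2 called 2, Nfkbia and Tob1. Tob1, an antiproliferative factor, rose by 2.77 in Ccnd1-Ikk2ca (SE 0.468, edgeR adjusted p = 0.00159), 2.54 in Ikk2ca(M) (SE 0.437, edgeR adjusted p = 0.0104) and 2.32 in MMSET-Ikk2ca (SE 0.414, edgeR adjusted p = 0.00221). Nfkbia, the NF-kB inhibitor and target, rose by 1.02, 1.21 and 1.22 in the same 3 groups (edgeR adjusted p = 0.00424, 0.0157 and 0.00183). Btg2, an antiproliferative p53 target, rose by 0.87 in MMSET and 0.93 in Ikk2ca(M) (edgeR adjusted p = 0.0273 and 0.0174), and the double genotype differed from their sum by -1.44 (interaction, SE 0.242, edgeR adjusted p = 0.025). Dusp2, a phosphatase of ERK and p38, was at 0 in all 6 MMSET-Ikk2ca libraries and at 4.01 ± 3.98 CPM in Control(M) (edgeR adjusted p = 0.00307), while its relative Dusp1 rose there.

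Few of the kinases that act upstream passed. Of 18 MAP kinase, SRF and CREB genes, Map2k3, a kinase of p38, fell by 0.74 in Ccnd1-Ikk2ca against Control(D) (edgeR adjusted p = 0.0308), where 11.1% of all genes were called. Within cohort M edgeR called 0 of the 18, with 0 to 2 at an unadjusted p under 0.05 in a comparison. DESeq2 called 1 there in Ikk2ca(M) against Control(M), Map2k2, and 1 in MMSET-Ikk2ca against MMSET, Map2k1. Batf, Map2k2 and Map2k1 were named after their values were seen. Of 10 heat shock genes, Hspe1 rose by 0.61 in Ccnd1-Ikk2ca against Control(D) (edgeR adjusted p = 0.036), 9 of the 10 did not pass there, and edgeR and DESeq2 called 0 of 10 within cohort M, with 0 to 3 at an unadjusted p under 0.05 in a comparison. The median log2 change over the heat shock genes was 0.54 in MMSET and 0.51 in MMSET-Ikk2ca against Control(M), with 10 and 9 of 10 above 0.

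Between the 2 controls 0 of the 10 genes were called by edgeR, beside 0.0409% of 17116 genes called, with 0 at an unadjusted p under 0.05 and 0 called by DESeq2. Between the 2 Ikk2ca groups edgeR called 0 of the 10 and 0% of all genes, with 0 of the 10 at an unadjusted p under 0.05 and 0 called by DESeq2. B cell markers were lower in both double genotypes than in their controls, with sums over 6 genes of 31.3 to 52.8 CPM in Ccnd1-Ikk2ca against 102 to 194 in Control(D), and of 57.7 to 111 in MMSET-Ikk2ca against 132 to 373 in Control(M). The single genotypes of cohort M also lay wholly below Control(M), at 12.5 to 54.0 CPM in MMSET and 37.3 to 90.7 in Ikk2ca(M), whereas Ccnd1 (74.7 to 147) and Ikk2ca(D) (40.5 to 183) overlapped Control(D). Cr2 was at 0 in all Ccnd1-Ikk2ca libraries. Neutrophil sums were 0.899 to 198 CPM in Ccnd1-Ikk2ca and 44.5 to 495 in Control(D), and monocyte and macrophage sums 433 to 821 and 412 to 526. Ctss gave most of the monocyte and macrophage sums, with means of 627 CPM in Ccnd1-Ikk2ca and 345 in Control(D). In that comparison 6 of the 8 monocyte and macrophage genes lay below 0 and 2 above, with a median log2 change of -1.64. T and NK cell sums were at most 21.5 CPM and erythroid sums at most 10.3 in any library. The part of these cells in the levels of the 10 genes was not tested.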

How the data were processed

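RNA of 36 libraries was measured. Per the labels' protocols, cDNA was primed with oligo-dT, made by template switching and tagged with Nextera XT. No molecular identifiers are described. Per the submitters' processing notes, bcl2fastq 2.20.0.422, Salmon 1.3.0, DESeq2 1.32.0 and GRCm38 were used. The annotation release is not given in the sources used here. Per the file headers, the deposited tables hold Salmon's estimated counts and TPM per transcript.

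The deposited estimated counts were summed to 54203 genes with GENCODE M21, without strand, and rounded. 865 transcripts found no gene (0.0636% to 0.134% of reads). edgeR 4.0.16 in R 4.3.3 (TMM, filterByExpr, robust quasi-likelihood test, two-sided) was fitted to the 18 libraries of each cohort (15323 and 15416 genes) and to all 36 across cohorts (17116). The SE is the absolute log2 fold change over the square root of F. CPM levels use TMM factors over 36 libraries. Correlations of log2 CPM (prior count 2) used 100000 permutations within groups. All 10 members are named. From other lists the called genes with the smallest p are named, at most 4 per list and comparison; some of these genes are not reported here. The alternatives were DESeq2 1.42.0, its size factors, no filter, no immunoglobulin genes, a replicate block and leaving out each library. Another 2 alternatives and 3 contrasts between cohorts were added after the data were seen. Members and lists were chosen with earlier results of these data known. No 2 libraries of a group matched within sampling noise. The edgeR script was tested on simulated data.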

Additional observations from a re-analysis of the deposited data

Results flagged for a closer look

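In groups of 4 to 6 libraries, Dixon's test at 95% marked 6 of 79 sets of levels as holding a library far from the rest, where chance marks about 1 in 20. Ccnd1-Ikk2ca 5 was marked in 2 genes, Jund at 75.5 CPM (next 34.4) and Dusp1 at 41.2 CPM (next 10.8). In the same group, library 1 was marked for Egr1 at 2.51 CPM (next 0.859) and library 4 for Atf3 at 1.29 CPM (next 0.367). Atf3 was also marked in Ikk2ca(D) 3, at 0.595 CPM (next 0.0124). Ccnd1 1 was marked as the lowest library of its group for Jun, at 11.6 CPM (next 22.4). No cause of these values was tested.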

How the results depend on the processing

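Of 3140 member values recomputed under the alternatives, 2984 were called in neither fit (165 of these changed sign), 98 kept a call and its direction, 35 lost a call, 23 gained one and 0 called values changed sign. Rises of Junb in Ccnd1-Ikk2ca and of Jun in MMSET-Ikk2ca against their controls held in 17 of 17 alternatives each. DESeq2 called more of the 10 genes, and more of all genes (13.8% against 6.91% in MMSET-Ikk2ca against Control(M)): 1 in Ikk2ca(D) and 1 in Ikk2ca(M) against control, 2 in MMSET, 5 in MMSET-Ikk2ca against Control(M) and 2 against Ikk2ca(M), 2 in Ccnd1-Ikk2ca against Ccnd1, 1 in the MMSET by Ikk2ca interaction and 2 between the double genotypes. No low-count filter gave 0 in Ccnd1-Ikk2ca against Ccnd1 and 0 in MMSET-Ikk2ca against MMSET. With libraries 1 to 4 of the doubles the count was 0 against Ccnd1 and 1 (Jun) between the doubles, and with all 36 libraries in 1 fit it was 0 in MMSET. Same-numbered libraries had a median correlation of 0.0103 in cohort D and 0.0275 in cohort M, with 1 of 48 pairs over 0.1. Libraries with different numbers had medians of -0.0037 and -0.0053. These values are small and do not settle whether the replicate numbers pair the libraries. With the replicate block the counts were 1 in Ccnd1-Ikk2ca against Control(D), 0 against Ccnd1 and 0 in MMSET. In MMSET-Ikk2ca against Control(M) the block ended the calls of Atf3 and Dusp1, Jun was called with it and without it, and Fos was called lower with it, which made 2 in place of 3. Leaving out 1 library moved the counts between 1 and 3 in Ccnd1-Ikk2ca and between 1 and 4 in MMSET-Ikk2ca against control, and between 0 and 1 in Ccnd1-Ikk2ca against Ccnd1, in MMSET and Ikk2ca(M) against Control(M), in MMSET-Ikk2ca against Ikk2ca(M) and MMSET, and between the doubles. The causes were not tested. Depth limits what can be seen of Atf3 and Egr1, which had no reads in 18 and 8 of 36 libraries.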
